A study of Homo sapiens with 12 samples.

Results

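SRF and 9 actin cytoskeleton genes were followed in RNA-sequencing libraries of LN229, an established human glioblastoma cell line that the labels give as IDH wildtype. The genes were taken by name from the deposited tables: SRF, ACTB, ACTG1, ACTA2, TAGLN, CNN1, CNN2, VCL, TPM1 and MYL9, which are 10 of the 21462 genes listed. Of these, 9 had a mean level of at least 1 TPM and were among the 11306 genes tested, and CNN1 was not. TPM is a length-corrected share of each library's RNA, so the level of a gene also depends on all the others.

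The study compared 6 control cultures with 6 cultures kept in 100 mM metformin, a biguanide used against type 2 diabetes, for 5 h. Both groups were grown in DMEM with serum and antibiotics. The study's methods describe 12 independent experiments, and all libraries come from 1 cell line, so no other glioblastoma line was measured here.

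Serum response factor, encoded by SRF, is a transcription factor that binds the CArG box, a short A/T-rich element, in front of cytoskeletal and growth-response genes. It works with 2 kinds of cofactor. The MRTFs are held back by unpolymerized (G-) actin and released when actin is built into filaments, and the ETS-type cofactors ELK1, ELK3 and ELK4 answer to growth-factor signalling. The actins, and proteins such as calponin, transgelin, tropomyosin and vinculin, are both parts of the filament system and classical targets of the MRTF branch, and SRF itself carries CArG boxes.

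The regulatory sequences that SRF reads were looked up first, since they mark which of the genes carry the element next to their start. RefSeq promoter windows (GRCh38.p14, 250 bases before to 50 bases after a gene's start) were found for 7 of the 10 genes, and for TAGLN, ACTB and MYL9 none was used. An exact CArG box on either strand was present in 3 of the 7 (SRF, ACTG1 and CNN2), against 1.57% of the 9058 tested genes with a window and 1.29% of all 35116 windows. Below, capitals mark the exact CArG boxes. The 60 bases directly before the SRF start (chr6:43171209-43171268, plus strand) hold a pair of them.

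SRF: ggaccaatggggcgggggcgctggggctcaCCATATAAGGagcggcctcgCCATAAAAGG

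The cytoplasmic actin gene ACTG1 and the calponin gene CNN2 had 1 box each within 100 bases of the start, at chr17:81512864-81512913 (minus strand) and chr19:1026499-1026548 (plus strand). ACTA1, the skeletal muscle actin, also had 1 box (chr1:229434162-229434211, minus strand) and is shown since its level changed most among the actins. Exact boxes were also found in the muscle actins ACTC1 (1 box) and ACTG2 (2 boxes), whose levels overlapped between the groups.

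ACTG1: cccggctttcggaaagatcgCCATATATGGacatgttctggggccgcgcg

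CNN2: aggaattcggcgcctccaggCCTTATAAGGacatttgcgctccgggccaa

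ACTA1: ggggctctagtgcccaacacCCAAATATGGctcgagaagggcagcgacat

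In ACTA2 no exact box was found, but 1 of its 2 windows held 2 sites with 1 mismatch, a degree of match present in 18.8% of tested genes. The windows of CNN1, VCL and TPM1 held no exact box. A match describes these letters only, and does not show that SRF was bound.

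The libraries held 19583535 to 21836186 exon reads in controls and 14331617 to 19516144 in metformin. Metformin replicate 1 stood apart: it had the lowest total, against at least 18525144 in the other metformin libraries. Its genes had a median log2 difference of -0.81 from the mean of the other 5 metformin libraries. Reads across exon junctions made up 38.1 per 100 exon reads in it, against 45.7 to 48.1 in the other metformin libraries and 44.7 to 46.7 in controls. Test results for the 10 genes are therefore given with and without this library. Of the 29 called genes that are named from gene lists, all 29 were called in the same direction without it. These genes were picked from calls on libraries that both fits share, so such agreement was likely from the start. In the fit without it, 17.1% of all tested genes were called higher and 49.3% lower. Of 12 glioma and neural markers, 6 were measured above the minimum, with VIM at a control mean of 920 TPM and CD44 at 252 TPM, while GFAP (0.06 TPM), SOX2 and AQP4 were at or near 0. Of these 6, 3 fell with metformin (EGFR by 1.27, OLIG2 by 0.99 and NES by 0.51 on the log2 scale) and 1 rose (SLC1A3, 1.64, limma). Of all tested genes 41.8% fell and 8.00% rose in that fit. The part of these marker changes in the results was not tested. After median-ratio scaling NES was not called (-0.08, adjusted p = 0.48). PDGFRB, a pericyte and fibroblast marker, fell by 0.38 (limma adjusted p = 0.045), near the median change of all genes, -0.37. It was the only call among the 3 tested genes of its list, and none was called after median-ratio scaling. The smooth muscle markers MYH11, LMOD1, CASQ2 and MYOCD were at most 0.473 TPM in all libraries, and of the 10 genes of that list only SMTN entered the tests. In bulk RNA, fewer cells of a type and less RNA per cell cannot be told apart.

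On the TPM scale the median log2 fold change of all 11306 tested genes was -0.37 (-0.22 without metformin replicate 1), so a gene near 0 stood above most others. The median over the 9 tested cytoskeletal genes was 0.10, and 8 of the 9 lay above the median of all genes, VCL being the exception. With limma on log2(TPM + 1) and Benjamini-Hochberg adjustment over all tested genes, 1 of the 9 (TAGLN) rose and none fell, where 8.00% of all tested genes rose and 41.8% fell. Without metformin replicate 1, 5 of the 9 rose (SRF, ACTB, ACTG1, TAGLN and TPM1) and none fell, against 17.1% and 49.3% of all genes, and all 9 lay above the median of all genes.

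The scaling changed these counts. After median-ratio scaling, which brought the median of all genes to 0.02, 6 of the 9 were called higher and none lower, against 23.4% and 25.5% of all genes, and the median of the 9 was 0.54. When exon reads were tested by edgeR (quasi-likelihood), 7 were higher and none lower, against 24.5% and 26.0% of all genes. After quantile normalization 2 were higher and none lower (20.7% and 27.2%). On the libraries other than metformin replicate 1, 7 were called higher and 0 lower both after median-ratio scaling (33.9% and 33.3% of all genes) and by edgeR (32.4% and 34.3%). The 3 genes that were called higher after median-ratio scaling but lay slightly below 0 after quantile normalization were ACTB, ACTG1 and CNN2.

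**Figure D1:**
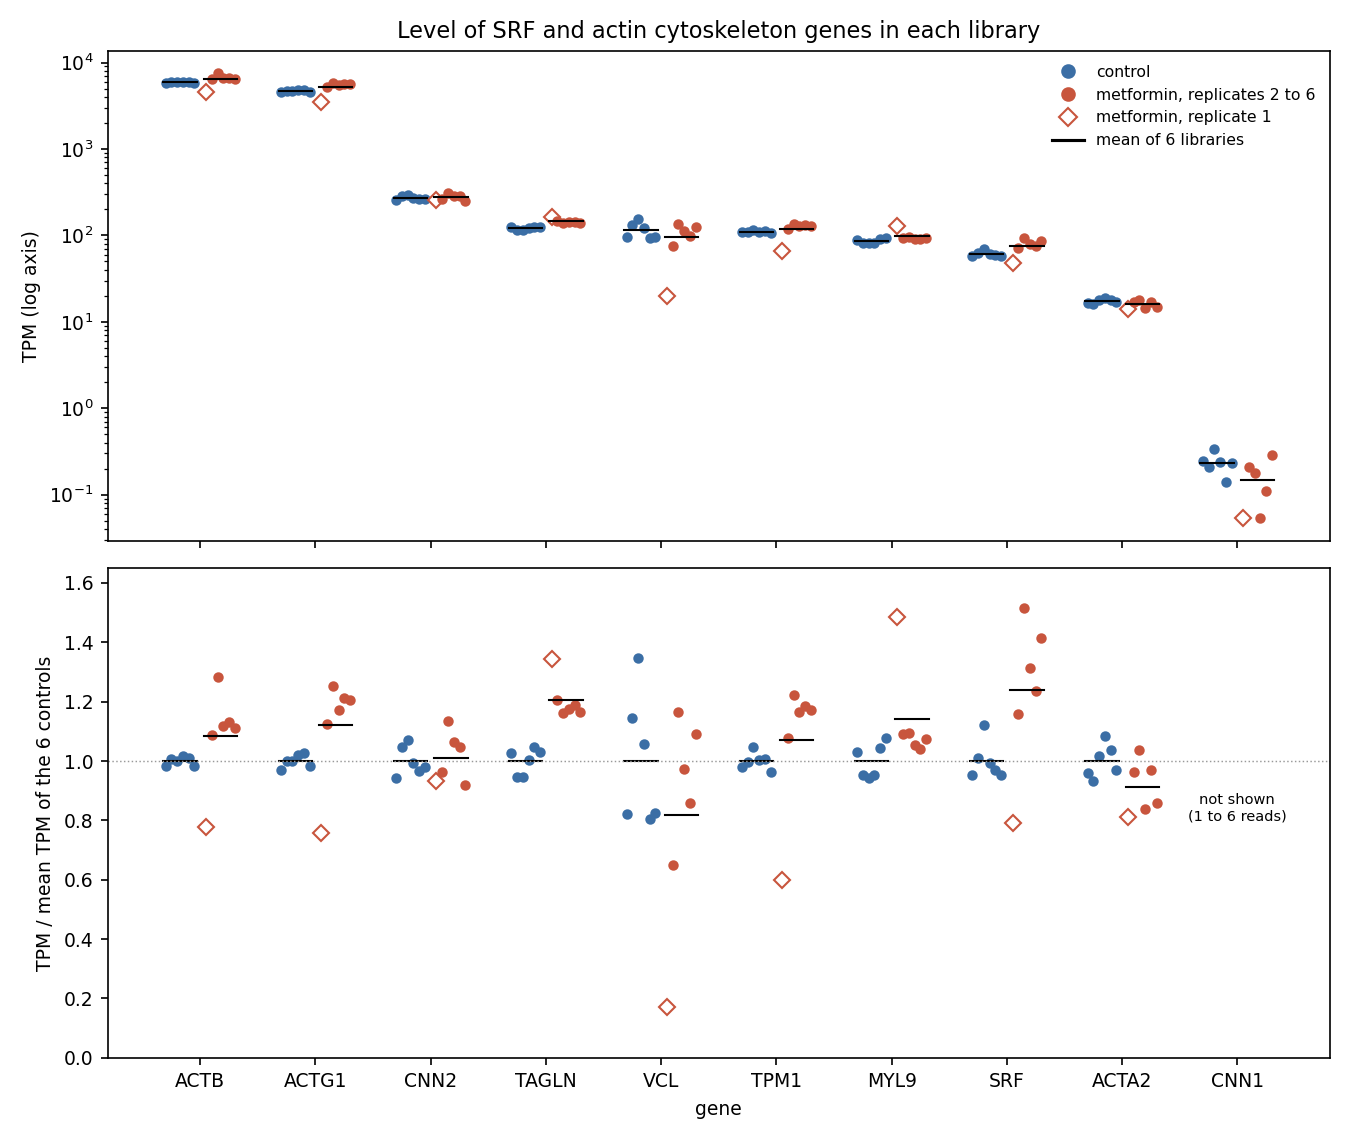
Level of the 10 genes in each library, as TPM on a log axis (upper panel) and as TPM divided by the mean of the 6 controls (lower panel, linear axis from 0; CNN1, with 1 to 6 exon reads, left out). Each point is 1 library, the open diamond is metformin replicate 1 and the line is the mean of 6 libraries. In SRF, ACTB, ACTG1 and TPM1 the diamond lay below all controls and the other 5 metformin libraries above them, and in TAGLN all 6 metformin libraries lay above all controls.

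SRF was measured at 58.4, 60.1 and 68.7 TPM in controls (lowest, median and highest of 6) and at 48.5, 78.0 and 92.9 TPM in metformin. Metformin replicate 1 was the only metformin library below the controls, and the other 5, at 70.9 to 92.9 TPM, were all above the highest control. The log2 fold change was 0.28 ± 0.13 (SE, limma, n = 6 per group, adjusted p = 0.105), and 0.40 ± 0.07 without that library (adjusted p = 2.7e-04). By edgeR on exon reads SRF was higher with all 12 libraries (0.69 ± 0.06, adjusted p = 1.2e-06).

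The cofactors of SRF moved in different directions. Of the 8 measured of 10 listed, 2 rose and 2 fell with limma on TPM (median 0.02, all genes -0.37). Of all tested genes 8.00% rose and 41.8% fell in that fit. Without metformin replicate 1 the counts were 4 and 2 (all genes 17.1% and 49.3%). After median-ratio scaling they were 4 and 1 (all genes 23.4% and 25.5%), with a median of 0.38 (all genes 0.02). FHL2, a LIM-domain partner of SRF, rose from 47.6 ± 1.1 to 78.1 ± 12.5 TPM (SD, n = 6), with a log2 fold change of 0.68 (adjusted p = 0.00025). GATA6, a zinc-finger transcription factor, rose from 3.19 to 6.24 TPM (0.76, adjusted p = 0.00076). MRTFB, an actin-sensing coactivator, fell from 6.85 ± 2.06 to 2.81 ± 1.34 TPM (-1.12, adjusted p = 0.0079), with no overlap between the groups. Its relative MRTFA had 10.4 to 14.4 TPM in controls and 7.72 to 16.7 in metformin and was not called (0.26, adjusted p = 0.23). Without metformin replicate 1 MRTFA was called higher (0.41, adjusted p = 0.0012) and MRTFB was again lower (-0.84, adjusted p = 8.8e-04). The muscle-restricted coactivator MYOCD was at 0 in controls and at most 0.017 TPM in metformin.

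Among the ETS-type cofactors, ELK1 fell from 50.6 to 34.9 TPM (-0.55, limma adjusted p = 0.013). ELK1 missed the threshold after median-ratio scaling (-0.13, adjusted p = 0.055). ELK3 had 52.2 to 84.5 TPM in controls and 23.3 to 151 in metformin, with metformin replicate 1 the lowest (0.64, adjusted p = 0.19), and was called higher without that library (1.04, adjusted p = 2.5e-05). ELK4 was not called in either fit (-0.49, adjusted p = 0.22, and -0.19, adjusted p = 0.34).

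ACTB and ACTG1, the cytoplasmic actins that form most of the filaments of a non-muscle cell, were the highest of the 10 genes. ACTB was measured at 5778, 5907 and 5983 TPM in controls (lowest, median, highest) and at 4570, 6555 and 7559 TPM in metformin. ACTG1 was measured at 4533, 4681 and 4810 TPM in controls and at 3538, 5569 and 5864 TPM in metformin. Both genes have near-identical processed copies in the genome, and nearly all of their exon reads were counted as unique (ACTB at least 99.97%). In both, metformin replicate 1 was below every control, while the other 5 were above every control. With all 12 libraries neither was called (log2 fold change 0.10 ± 0.10 for ACTB, adjusted p = 0.41, and 0.15 ± 0.11 for ACTG1, adjusted p = 0.28, limma). Without that library both rose, ACTB by 0.19 ± 0.04 (adjusted p = 0.0015) and ACTG1 by 0.26 ± 0.04 (adjusted p = 3.5e-05).

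ACTA2, the smooth muscle actin, was read at 16.2, 17.2 and 18.8 TPM in controls and at 14.1, 15.8 and 18.0 TPM in metformin. The groups overlapped and the gene was not called with or without metformin replicate 1 (-0.13, adjusted p = 0.23, and -0.10, adjusted p = 0.24, limma). Its sign depended on the scaling: after median-ratio scaling the value was 0.29, also not called (adjusted p = 0.12).

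The other 3 actins are used mainly in muscle. ACTA1 rose from 0.079, 0.284 and 0.439 TPM in controls to 2.15, 3.05 and 5.12 TPM in metformin, without overlap. These levels came from 1 to 5 exon reads per control library and 24 to 52 per metformin library. The log2 fold change on the log2(TPM + 1) scale, which understates changes of low genes, was 1.71 ± 0.15 (limma), and 1.78 without metformin replicate 1. ACTA1 reached the minimum level only through the metformin libraries, so its change is given as a description. The same holds for ACTC1, the cardiac actin, which had 0.342 to 1.33 TPM in controls and 0.679 to 2.09 in metformin, with overlap (0.39, and 0.48 without metformin replicate 1). ACTG2 stayed at 0 to 0.160 TPM. Another striated muscle marker, the creatine kinase gene CKM, went from a mean of 0.040 to 2.46 TPM (1.70 on the log2 scale) and also entered the tests only through its metformin level, while the defining sarcomere genes TTN and MYH7 were at or near 0 (at most 0.087 TPM).

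The summed level of the 6 actins was 1.03% to 1.08% of all TPM in controls, 0.813% in metformin replicate 1 and 1.17% to 1.34% in the other metformin libraries. Within this sum, ACTB made up 55.6% ± 0.3 in controls and 54.8% ± 1.2 in metformin (SD, n = 6), a difference of -0.76 points that did not pass the exact two-sided permutation test (p = 0.15, adjusted p = 0.15 over 3 shares). ACTG1 moved the opposite way by 0.76 points (p = 0.15, adjusted p = 0.15, exact permutation test). ACTA2 made up 0.164% ± 0.007 in controls and 0.138% ± 0.019 in metformin (p = 0.017, adjusted p = 0.052, exact permutation test). With metformin replicate 1 left out, ACTA2 was at 0.131% and below controls in all 5 libraries (exact p = 0.0022, adjusted p = 0.0065). The ACTB and ACTG1 shares then differed by -1.04 and 1.04 points (adjusted p = 0.045 for each, exact permutation test). All 3 shares also passed when metformin replicate 3 was left out instead (adjusted p = 0.048 for each, exact permutation test).

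TAGLN, which encodes the actin-bundling protein transgelin, was the gene whose groups did not overlap. It was measured at 114, 122 and 126 TPM in controls and at 140, 143 and 162 TPM in metformin. Of the 9 tested genes it was the only one with all 6 metformin libraries above all controls, a pattern shown by 4.69% of all tested genes. None had all 6 below all controls (37.3% of all genes). With metformin replicate 1 left out, 5 of the 9 lay above all controls (11.0% of all genes) and none below (39.3%). TAGLN rose by 0.27 ± 0.06 on the log2 scale (limma, adjusted p = 0.0025), and by 0.24 ± 0.04 without replicate 1 (adjusted p = 1.5e-04). It was the call made in every limma and count fit except the one on RPKM, where its adjusted p was 0.065.

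The 3' end of TAGLN overlaps PCSK7, a proprotein convertase gene on the opposite strand, by 3128 bases. No source used here says if the counting kept strands apart, and reads from such pairs of genes cannot be told apart. Of the TAGLN exon reads, 66.7% to 72.8% were counted as unique in 11 libraries and 36.6% in metformin replicate 1, where TAGLN was highest. PCSK7 had 23.5 to 36.8 TPM in controls and 2.33 TPM in that library. On uniquely mapped exon reads TAGLN was still called higher with edgeR, at 0.55 (adjusted p = 1.3e-04), a fit scaled otherwise than TPM. Unique TAGLN exon reads numbered 2449 in metformin replicate 1, the fewest of all libraries. Controls had 3124 to 4030 and the other metformin libraries 3710 to 4243. That library also had the fewest exon reads in all. The absence of overlap in TPM was therefore not shown for unique reads alone.

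The calponins are actin-binding proteins. CNN2 was measured at 256, 268 and 291 TPM in controls and at 250, 273 and 308 TPM in metformin, with overlap (0.01 ± 0.07, limma, adjusted p = 0.90). It was called higher after median-ratio scaling (0.45, adjusted p = 0.026), with a value of 0.30 when metformin replicate 1 was left out (adjusted p = 5.7e-04). CNN1, the smooth muscle calponin, had 3 to 6 exon reads in controls and 1 to 5 in metformin (0.141 to 0.341 and 0.053 to 0.286 TPM), and a difference was not detectable at this depth.

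VCL encodes vinculin, which couples filaments to focal adhesions. It was measured at 93.1, 109 and 156 TPM in controls and at 19.8, 106 and 135 TPM in metformin. Metformin replicate 1 was the library at 19.8 TPM. Metformin replicate 2, at 75.0 TPM, was also below every control. The remaining metformin libraries, at 99.1 to 135 TPM, lay within the control range. VCL was not called with or without it (-0.47 ± 0.39, adjusted p = 0.33, and -0.08 ± 0.17, adjusted p = 0.70, limma).

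TPM1, a tropomyosin that lies along the filament, was measured at 106, 110 and 115 TPM in controls and at 65.9, 129 and 134 TPM in metformin. As for SRF and the cytoplasmic actins, metformin replicate 1 was below all controls and the other 5 were above them. The change was 0.06 ± 0.15 with all libraries (limma, adjusted p = 0.76) and 0.22 ± 0.04 without replicate 1 (adjusted p = 4.4e-04).

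MYL9, a regulatory light chain of myosin, was measured at 81.7, 85.8 and 93.4 TPM in controls and at 90.1, 93.6 and 129 TPM in metformin. Here metformin replicate 1 was the highest library, and the other 5 (90.1 to 94.8 TPM) overlapped the controls. The change was 0.18 ± 0.09 (limma, adjusted p = 0.13) and 0.10 ± 0.05 without that library (adjusted p = 0.073). In edgeR on exon reads it was called higher (0.70 ± 0.26, adjusted p = 0.037), and the value was 0.34 without metformin replicate 1 (adjusted p = 0.0042).

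**Figure D2:**
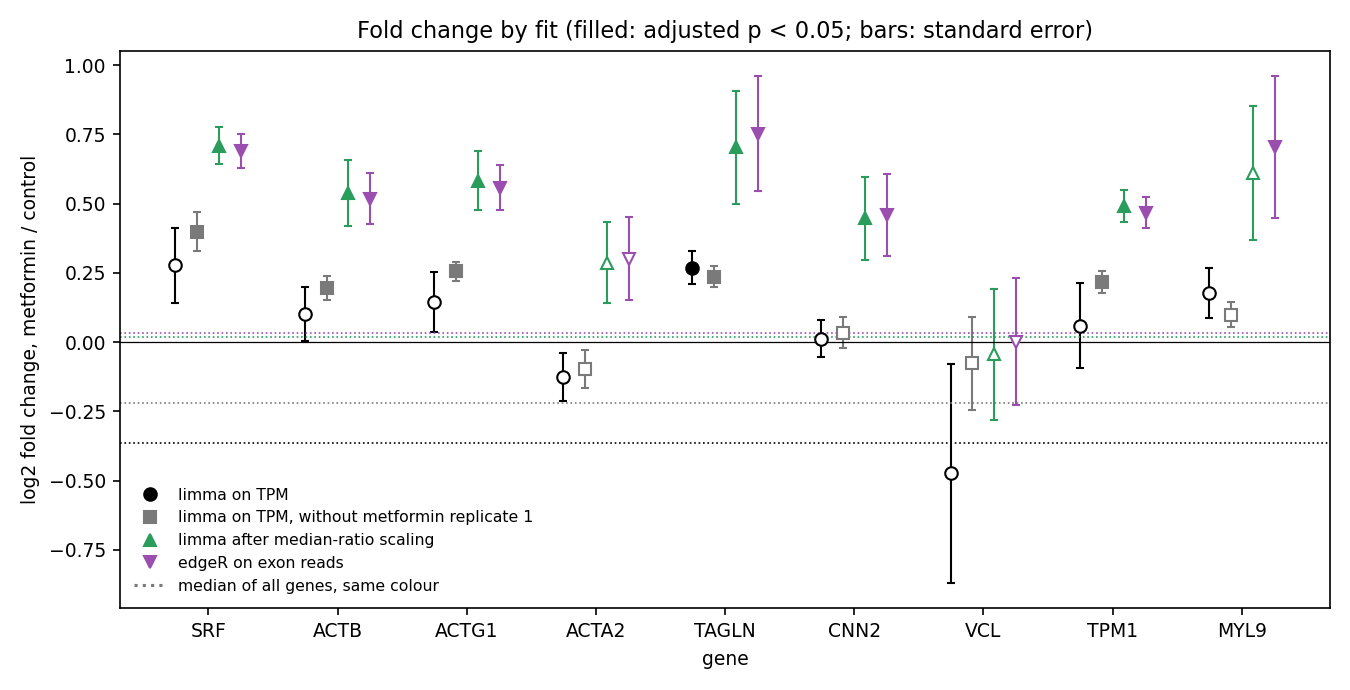
Log2 fold change of metformin over control for the 9 tested genes in 4 fits, with standard errors as bars and filled markers for adjusted p under 0.05. Dotted lines give the median of all genes in the fit of the same colour (-0.37, -0.22, 0.02 and 0.03 from limma on TPM to edgeR). TAGLN was called in all 4 fits, ACTA2 and VCL in none, and SRF, ACTB, ACTG1 and TPM1 in all but limma on TPM with 12 libraries.

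The order of levels in controls ran from ACTB and ACTG1 through CNN2 (272 ± 13 TPM), TAGLN (121 ± 5), VCL (116 ± 26), TPM1 (110 ± 3), MYL9 (86.6 ± 5.0), SRF (61.2 ± 3.9) and ACTA2 (17.4 ± 1.0) to CNN1 (0.23 ± 0.06; mean ± SD, n = 6). The ranges of TAGLN and VCL overlapped, as did those of VCL and TPM1, and the other neighbours were apart. In metformin TPM1, MYL9, VCL and SRF followed each other with overlapping ranges. Across the 12 libraries the genes with log2 levels most like SRF were THBS1 (Pearson r = 0.99), JARID2, USP38, CREBBP and NRP2. For the mean of the 9 genes they were EEF2 (r = 0.99), WDR1, CNOT3, CACTIN and SKI. These r values describe libraries that fall into groups, with metformin replicate 1 far from the rest. Over all metformin libraries, replicate 1 included, TAGLN (r = -0.98) and MYL9 (r = -0.88) ran against SRF. ACTB (0.96), ACTG1 (0.96), VCL (0.99) and TPM1 (0.95) ran with it. Metformin replicate 1 was the lowest metformin library in SRF (48.5 TPM), ACTB, ACTG1, VCL and TPM1. It was the highest in TAGLN (162 TPM) and MYL9 (129 TPM). The r values without that library were not computed, so these signs may rest on it. Among the controls r with SRF was only 0.31 for ACTB and 0.19 for ACTG1. It was 0.91 for VCL, 0.90 for TPM1, -0.81 for TAGLN and -0.74 for MYL9.

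Reads in introns come mainly from RNA not yet spliced, and were counted separately for each gene. Other annotated genes overlap several of these genes. Among them, AC139149.1 overlaps ACTG1 (9801 bases) and TPM1-AS overlaps TPM1 (3354 bases), both on the opposite strand. AL596247.1 overlaps VCL on the same strand (22779 bases). Reads of these overlapping genes were not analysed here, so the source of the intron reads of ACTG1, TPM1 and VCL was not tested. With edgeR on intron reads of 11118 genes, 1 of the 9 genes rose (TAGLN) and 2 fell (MYL9 and TPM1), where 31.3% of all genes rose and 30.2% fell. Without metformin replicate 1, 2 rose (SRF and TAGLN) and 3 fell (MYL9, TPM1 and VCL), against 36.4% and 38.0% of all genes.

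MYL9 had 46, 57 and 66 intron reads in controls (lowest, median, highest) and 2, 7 and 13 in metformin, with no overlap. The log2 fold change was -2.56 (edgeR quasi-likelihood test, adjusted p = 2.7e-06), and -2.69 without metformin replicate 1 (adjusted p = 3.1e-08). Its level in exons was not lower in the same libraries. In intron reads per 100 exon reads MYL9 went from 2.96 ± 0.67 to 0.384 ± 0.217 (SD, n = 6). The mean log2 ratio differed by -3.04 (exact two-sided permutation test, p = 0.0022, the smallest this design allows, adjusted p = 0.019 over the 9 tests made). The whole of MYL9 (chr20:36541497-36551447) lies within DLGAP4-AS1 on the opposite strand, whose reads were not analysed here, so the strand of these intron reads cannot be told.

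TAGLN had 59, 70.5 and 84 intron reads in controls and 10, 133.5 and 159 in metformin. The value of 10 belonged to metformin replicate 1, and 4 of the other 5 were above every control. The log2 fold change was 0.89 (edgeR, adjusted p = 0.0099), and 1.06 without that library (adjusted p = 4.1e-08). Its intron reads per 100 exon reads were 1.34 ± 0.35 in controls and 2.36 ± 0.67 in the other 5 metformin libraries. That ratio was called higher only without replicate 1 (log2 difference 0.80, exact p = 0.017, adjusted p = 0.031, against 0.16 and adjusted p = 0.92 with it, permutation test).

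SRF had 38, 51 and 67 intron reads in controls and 3, 74.5 and 119 in metformin, the 3 being replicate 1. Its intron reads were not called with all libraries (0.61, edgeR, adjusted p = 0.13) and were higher without replicate 1 (0.79, adjusted p = 4.8e-04). TPM1 had 462, 574.5 and 839 intron reads in controls and 84, 417 and 498 in metformin and fell by 0.47 on the log2 scale (edgeR, adjusted p = 0.026), and by 0.36 without replicate 1 (adjusted p = 0.0021). VCL, with 230 to 369 against 124 to 231, was called lower only without replicate 1 (-0.43, adjusted p = 3.6e-04, against -0.30, adjusted p = 0.072).

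Relative to exon reads, intron reads were also lower in ACTB (0.154 ± 0.014 against 0.116 ± 0.021 per 100 exon reads), ACTG1 (0.233 ± 0.017 against 0.161 ± 0.055) and TPM1 (6.96 ± 2.14 against 4.10 ± 1.49; SD, n = 6). In exact permutation tests of the log2 ratio their adjusted p over the 9 tests were 0.032, 0.029 and 0.044. At an unadjusted exact permutation p under 0.05, 4 of the 9 genes had a lower and 0 a higher ratio, against 19.2% and 25.2% of 11118 genes. With metformin replicate 1 left out, 5 were lower and 1 higher, against 22.7% and 34.5%. The 3 calls were not stable to leaving out single libraries. At an adjusted p under 0.05, between 1 and 4 of the 9 genes were lower when each library was left out in turn. MYL9 was among them each time. Leaving out any 1 of control replicates 2 to 6 ended the calls of ACTB, ACTG1 and TPM1 (adjusted p from 0.058 to 0.112, permutation tests). Over all alternatives run, the call of TPM1 was lost in 11 and kept in 3. That of ACTB was lost in 8 and kept in 6, and that of ACTG1 was lost in 7 and kept in 7. Without metformin replicate 1, the genes with a lower ratio at an adjusted p under 0.05 were MYL9, VCL, ACTB and ACTG1. VCL had 4.93 ± 0.42 in controls and 3.85 ± 0.39 in the other 5 metformin libraries (adjusted p = 0.0097, exact permutation test). Over all genes, intron reads per 100 exon reads were 5.42 to 7.95 in controls, 4.33 in metformin replicate 1 and 5.12 to 8.09 in the other metformin libraries.

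**Figure D3:**
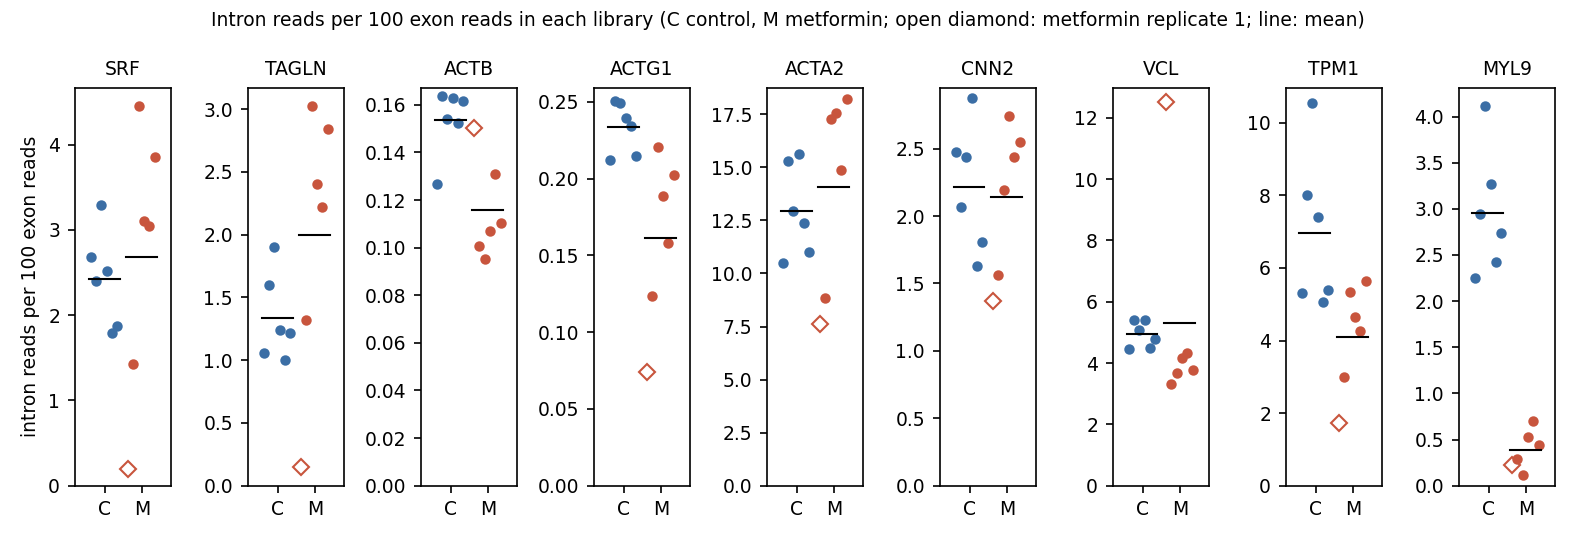
Intron reads per 100 exon reads of the 9 genes in each library (C control, M metformin, linear axes from 0 with a scale per gene). Points are libraries, the open diamond is metformin replicate 1 and the line is the mean of 6. MYL9 lay between 2.25 and 4.11 in controls and between 0.111 and 0.705 in metformin, and in SRF and TAGLN replicate 1 was the lowest of all libraries, at 0.196 and 0.150.

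Reads that span exon junctions come from spliced RNA. None of the 9 genes differed in junction reads per 100 exon reads (exact permutation tests, smallest p = 0.056 for TAGLN, adjusted p = 0.40 over 9 tests), and none did without metformin replicate 1 (smallest p = 0.12, adjusted p = 0.60). No gene had an unadjusted p under 0.05 in either. Metformin replicate 1 was the lowest library in each of the 9 genes. In CNN2 it had 2.09 junction reads per 100 exon reads, against 23.3 to 35.2 in the other 11 libraries, and in ACTB it had 8.75, against 28.9 to 32.5. The part of this library's low junction share in the results above was not tested.

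**Figure D4:**
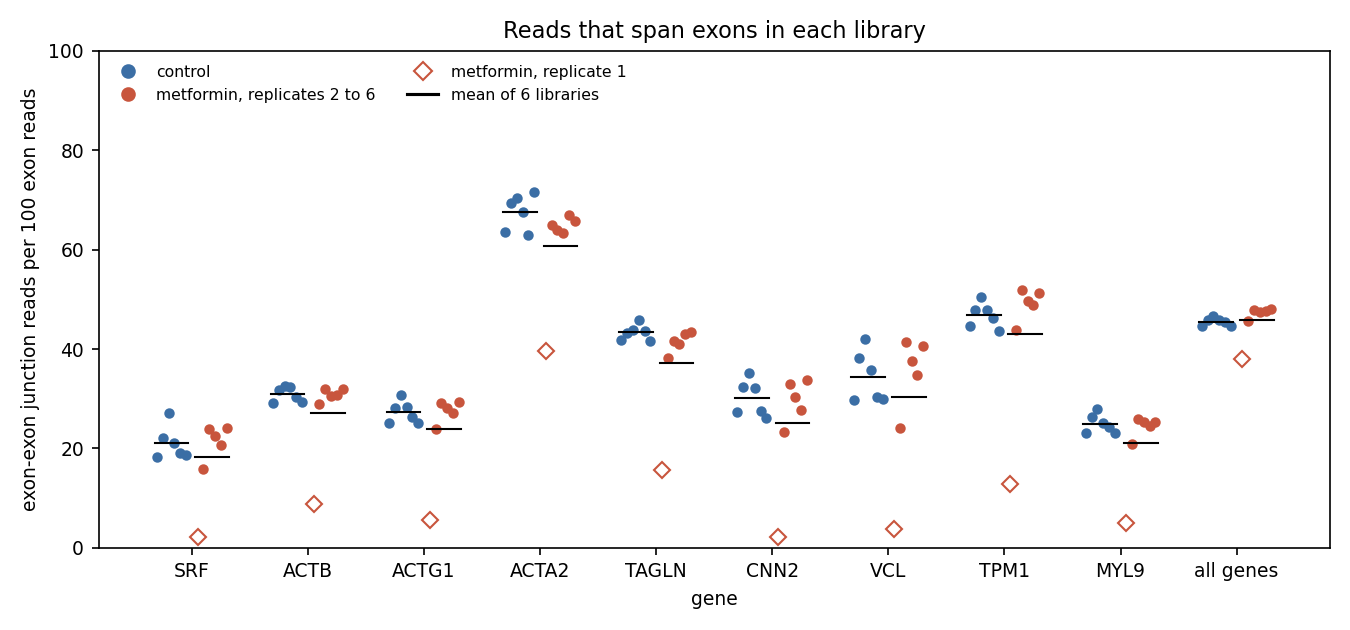
Exon-exon junction reads per 100 exon reads for the 9 genes and for all genes together, by library. Points are libraries, the open diamond is metformin replicate 1 and the line is the mean of 6. Apart from that library, controls and metformin overlapped in each gene. It lay at 2.09 in CNN2 and at 38.1 over all genes.

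Of 28 genes that bind actin monomers or drive polymerization, 3 rose and 2 fell on TPM (median -0.05). These are 10.7% and 7.14%, against 8.00% and 41.8% of all genes. TMSB4X, the monomer-sequestering thymosin, rose from 241 ± 16 to 348 ± 40 TPM (0.52, limma adjusted p = 0.00021). PFN1, a profilin, rose from 1448 to 2001 TPM (0.44, adjusted p = 0.016), and COTL1, a coactosin, from 446 to 523 TPM (0.22, adjusted p = 0.022). ARPC1A, an Arp2/3 subunit, fell from 225 to 169 TPM (-0.42, adjusted p = 0.0027), a change that was 0.01 and not called after median-ratio scaling. By that scaling 12 genes rose (42.9%) and none fell, against 23.4% and 25.5% of all genes. Without metformin replicate 1 on TPM 11 rose and 6 fell (39.3% and 21.4%, against 17.1% and 49.3%).

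Of 40 stress fibre and focal adhesion genes, 5 rose and 6 fell on TPM (median -0.12). These are 12.5% and 15.0%, against 8.00% and 41.8% of all genes. The counts became 11 and 7 without metformin replicate 1 (median 0.09, all genes -0.22), or 27.5% and 17.5% against 17.1% and 49.3%. The focal adhesion proteins TGFB1I1 (40.1 to 19.2 TPM, -1.03, limma adjusted p = 3.8e-07), TNS1 (10.9 to 3.16 TPM, -1.56) and TNS3 (1.97 to 0.70 TPM, -0.83) fell. TNS3 was tested only because of its control level. All 3 fell after median-ratio scaling too (-0.60, -1.22 and -0.63). FLNC, a filamin, rose from 240 ± 48 to 542 ± 234 TPM (1.03, adjusted p = 0.021), though metformin replicate 1 was below all controls. After median-ratio scaling 17 of the 40 rose and 5 fell (median 0.30), or 42.5% and 12.5% against 23.4% and 25.5% of all genes.

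The list of other MRTF-SRF targets had 19 measured genes, with 5 higher and 6 lower on TPM (median -0.12). These are 26.3% and 31.6%, against 8.00% and 41.8% of all genes. The counts were 9 and 7 without metformin replicate 1 (median 0.07), or 47.4% and 36.8% against 17.1% and 49.3% of all genes. They were 10 and 3 after median-ratio scaling (median 0.31), or 52.6% and 15.8% against 23.4% and 25.5%. ANKRD1, a stretch-responsive ankyrin-repeat protein, fell from 410 ± 17 to 108 ± 26 TPM (-1.96, limma adjusted p = 8.1e-07). SMTN (145 to 106 TPM, -0.47) and TNFRSF12A (368 to 290 TPM, -0.35) fell on TPM and were not called after median-ratio scaling (-0.03 and 0.09). ACTA1, given above, was among the 5 higher.

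The genes listed here as immediate early targets of the ETS branch of SRF differed from these lists in their counts. Whether each of them answers to SRF or its ETS-type cofactors in these cells was not tested. Of 16 measured genes, 12 were higher and 1 lower on TPM (all genes 8.00% and 41.8%), with a median of 1.28. After median-ratio scaling 12 were higher and none lower (all genes 23.4% and 25.5%). NR4A1, among the genes called higher on TPM, reached the minimum level only through the metformin libraries. JUNB, an AP-1 subunit, rose from 31.2 ± 1.4 to 173 ± 30 TPM (2.41, limma adjusted p = 8.4e-09). ARC, best known as a synaptic immediate early gene, rose from 40.7 ± 1.6 to 434 ± 153 TPM (3.31), and FOSB, another AP-1 subunit, from 1.10 to 14.2 TPM (2.80). ID1, an inhibitor of bHLH factors, fell from 463 to 245 TPM (-0.96, adjusted p = 0.00028), a value of -0.52 that was not called after median-ratio scaling (adjusted p = 0.19). The counts were 12 and 1 as well without metformin replicate 1 (all genes 17.1% and 49.3%). Whether the lists differ from each other was not tested.

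Across the 142 tested genes with an exact CArG box in the promoter window, 13 rose and 53 fell on TPM (9.15% and 37.3%, against 8.00% and 41.8% of all genes), with a median of -0.27. After median-ratio scaling 42 rose and 31 fell (29.6% and 21.8%, against 23.4% and 25.5%). With metformin replicate 1 left out, 32 rose and 61 fell (22.5% and 43.0%, against 17.1% and 49.3%). The lower calls with the smallest p were ING4 (-1.48), FZR1 (-1.32) and CPT2 (-2.38; limma, adjusted p at most 2.1e-07). The higher call named from this group is AQP3 (0.09 to 4.51 TPM), an aquaporin that reached the minimum level only through the metformin libraries. ACTA1, ACTC1 and the 3 genes with boxes shown above are in this group too.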

How the data were processed

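The authors deposited 1 table per library with TPM and RPKM values and counts of exon, intron and junction reads per gene. The TPM and RPKM were computed by the authors from exon length and library size. The deposited counts are whole reads with no normalization. The deposited fractions (unique of total reads, intron of gene reads) were not used. For the aligner and the counter, the sources used here give no name. Mouse builds (GRCm38, mm10) stand in the processing notes of the submitters. The identifiers are human all the same, 21377 of 21462 being found in GENCODE 29 (GRCh38), and gene coordinates are those of the files.

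Genes sharing a symbol were summed (21446 left), and 11306 with a mean TPM of at least 1 were tested. The study's methods give TPM values, the limma package and an adjusted p under 0.05. The log2(TPM + 1) scale and limma 3.58.1 with trended eBayes (R 4.3.3) were chosen here. edgeR 4.0.16 was run on intron read counts of 11118 genes with a mean of at least 10 reads, and edgeR and DESeq2 1.42.0 on exon read counts as alternatives. Ratios and shares were compared with exact two-sided permutation tests over library splits, with 0.5 reads added in intron ratios. On simulated data limma recovered 80 of 100 genes changed by 0.5 and 100 of 100 changed by 1 (log2) with 7 false calls among 11306, edgeR on exon reads 82 and 100 with 11, and edgeR on 11118 intron counts 60 and 100 with 9. The simulation took its spread from the control libraries and changed well-covered genes, as many up as down. It held no outlying library and no shift of most genes, so these rates need not hold for the real comparison. Python 3.11.15, pandas 2.3.3, statsmodels 0.14.6 and matplotlib 3.10.9 were used. No 2 replicates agreed within sampling noise (chi-square per degree of freedom at least 2.31). P-values measure the spread between these libraries.

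The genes, lists and tests were chosen with earlier results of these data known. Named are the 10 genes, the other actins, the main SRF cofactors, per list the 3 called genes of smallest p among those moving the way most of its calls did, plus the called gene that changed most in the opposite way, and the 5 genes most correlated with SRF and with the mean of the 9. LMOD1, CASQ2, MYH11, TTN, MYH7, VIM, CD44, GFAP, SOX2, AQP4 and PCSK7 were named after their values were seen. Alternatives covered pseudocount, filter, RPKM, scaling, tool, a replicate block and each library left out. Removing metformin replicate 1 together with another scaling, edgeR without it and uniquely mapped reads were added after seeing the data. The result of 1 gene list is not reported here.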

Additional observations from a re-analysis of the deposited data

Results flagged for a closer look

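In 62 groups of 6 libraries (levels, intron and junction reads per 100 exon reads of the genes tested, and actin shares), 1 library lay farther from the rest than Dixon's 95% limit in 15. Chance gives about 1 in 20, or 3 of 62. Metformin replicate 1 was the library in 13 of the 15.

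On TPM it was lowest in ACTG1 (3538) and TPM1 (65.9) and highest in TAGLN (162) and MYL9 (129). In intron reads per 100 exon reads it was highest in VCL (12.5). In junction reads per 100 exon reads it was lowest in SRF (2.22), ACTB (8.75), ACTG1 (5.64), ACTA2 (39.7), TAGLN (15.7), CNN2 (2.09), TPM1 (12.8) and MYL9 (5.01). The other 2 were control libraries: SRF was highest in control replicate 3 (68.7 TPM), and intron reads per 100 exon reads of ACTB were lowest in control replicate 1 (0.127).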

How the results depend on the processing

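The count of genes called higher depended on the scaling, and the cause was not tested. It was 1 of 9 with limma on TPM and with 2 other pseudocounts, another filter or none, or a replicate block, and 1 with RPKM, where SRF was called in place of TAGLN. It was 6 after median-ratio scaling, 2 after quantile normalization, and 7 with edgeR and with DESeq2. It was also 7 with edgeR on uniquely mapped reads, and 7 in each of median-ratio scaling, edgeR and edgeR on uniquely mapped reads without metformin replicate 1. Leaving out each library in turn on TPM gave 1 to 5, the 5 being without metformin replicate 1. No gene was called lower in any of these.

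ACTA2 changed sign from -0.13 to 0.29 (median-ratio), 0.32 (quantile), 0.30 (edgeR), 0.33 (DESeq2) and 0.31 (edgeR, unique reads), and without metformin replicate 1 to 0.15 (median-ratio), 0.14 (edgeR) and 0.14 (edgeR, unique reads). VCL changed from -0.47 to 0.0013 (edgeR), 0.031 (DESeq2) and 0.0028 (unique reads), and without that library to 0.18 (median-ratio), 0.17 (edgeR) and 0.17 (edgeR, unique reads). After quantile normalization ACTB was -0.062, ACTG1 -0.038 and CNN2 -0.029. None of these values was called. CNN2 ranged from -0.023 to 0.037 with single libraries left out.

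In intron reads, 1 gene rather than 2 was lower with library sizes from exon reads. With single libraries left out, 1 to 2 were higher and 1 to 3 lower. The intron change of ACTB, not called, was -0.01, against 0.0021 with median-ratio size factors, 0.0081 with DESeq2, 0.12 with exon library sizes and -0.30 to 0.084 with libraries left out. The replicate numbers did not pair the libraries (same-number correlations from -0.64 to 0.73, 3 of 6 over 0.1). The correlations ran in blocks instead. Control replicates 1, 5 and 6 went with metformin replicates 1 and 2 (0.43 to 0.64). Control replicates 2, 3 and 4 went with metformin replicates 3 to 6 (0.20 to 0.73). All other pairs were negative. What these blocks reflect was not tested, and no fit included them. With the replicate block, intron calls stayed at 1 higher and 2 lower. In a paired sign-flip test of intron per exon reads 0 genes were lower rather than 4, the smallest p being 0.03125 before adjustment. With libraries left out 1 to 4 were lower and 0 to 1 higher. These log2 ratios then ranged from -0.15 to 0.053 in CNN2, -0.54 to 0.32 in SRF, -0.36 to 0.025 in VCL, -0.031 to 0.22 in ACTA2 and -0.054 to 0.80 in TAGLN. Actin shares ranged from -1.04 to -0.50 points (ACTB), 0.49 to 1.04 (ACTG1) and -0.033 to -0.022 (ACTA2). Junction reads per 100 exon reads gave 0 calls throughout, with differences from -4.07 to 0.29 in SRF, -4.53 to 0.23 in ACTG1, -6.16 to 1.36 in VCL and -5.50 to 2.29 in TPM1. Counting limits bear most on CNN1 and ACTA1, which rest on few reads.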
